A study of Mus musculus with 15 samples.

Results

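Gdf15, Atf4, Ddit3, Trib3, Chac1, Asns, Psat1 and Phgdh were followed through induction of the RNA-binding protein CELF2 in the mouse heart. They are 8 of the 16199 genes of the expression table and were taken by gene symbol. Each is linked to the integrated stress response, in which kinases that sense misfolded protein, amino acid shortage, heme shortage or viral RNA phosphorylate the translation factor eIF2 alpha. Most translation then slows, while the mRNA of the transcription factor ATF4 is translated more. ATF4 activates genes of amino acid supply, of glutathione turnover and of its own control, among them Ddit3, Trib3, Asns, Chac1, Psat1 and Phgdh. Gdf15 encodes a secreted ligand of the TGF-beta family that injured and strained heart muscle is known to release, and ATF4, CHOP and p53 are among its known activators.

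RNA-seq of poly(A)+ RNA was performed on ventricles of 15 FVB mice aged 14 to 16 weeks, 3 separate animals per group. Induced mice carried MHCrtTA, in which the cardiomyocyte promoter of Myh6 drives the reverse tetracycline transactivator, together with TRECUGBP2, a Tet-responsive human CELF2 transgene with a FLAG tag. They ate food with doxycycline (2 g/kg) for 12 h, 24 h, 72 h or 7 d. Control mice carried MHCrtTA without the CELF2 transgene and ate the same food for 72 h. Food was withheld for 2 to 3 h before the doxycycline food was given, and the atria and a small piece of the apex were cut away. Only the 72 h hearts were matched to control in the length of doxycycline, so at the other times its length and CELF2 cannot be told apart. The 12 h hearts alone were not taken a whole number of days after doxycycline began. They may therefore differ from all other groups in time of day, which was not tested. Every time point was set against the same 3 control hearts.

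Expression is given in RPKM, mapped reads scaled to the length of constitutive coding sequence and to the size of each library. Read counts were not used here and depth is unknown, so errors rest on the spread between hearts. The number of genes listed at 0 ranged from 1463 to 1977 per heart. The Celf2 row averaged 123 RPKM at 12 h and 150 RPKM at 24 h, then 230 RPKM at 72 h with 324 RPKM at 7 d, and no induced heart (84.48 or higher) was near the control hearts (11.27 or lower). Of 8 cardiomyocyte markers none was at 0 in any group. Sample titles carry a code with 3 values, called A, B and C here, whose meaning is not given. Code A holds 1 control heart and 1 heart each at 12 h, 24 h and 7 d with 2 at 72 h, code B holds the rest of the control, 12 h and 24 h hearts, and code C holds 1 heart at 72 h and 2 at 7 d with no control. Y-linked mRNA, a sign of male hearts, was found in 1 control heart, in none after 12 h, in 2 after 24 h and in every heart after 72 h and 7 d.

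On the mm9 assembly Gdf15 lies on chromosome 8 (73153292 to 73156355, minus strand), Atf4 on chromosome 15 (80085614 to 80087970, plus strand) and Ddit3 on chromosome 10 (126727830 to 126733344, plus strand). Trib3 lies on chromosome 2 (152163158 to 152169768, minus strand), as does Chac1 (119176965 to 119180117, plus strand). Asns is on chromosome 6 (7625169 to 7643254, minus strand), Psat1 on chromosome 19 (15979168 to 16021827, minus strand) and Phgdh on chromosome 3 (98117093 to 98143913, minus strand). All are protein coding. Exons of Ddit3 overlap those of Mars on the other strand, but none of them overlaps the coding sequence of Ddit3, from which its RPKM was counted.

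ATF4 binds DNA as a dimer with C/EBP family proteins at composite sites that read TGATGNAA. This letter string was searched on both strands of RefSeq promoter windows (GRCm38.p6), from 250 bases before to 50 after each start, and windows were found for all 8 genes. Windows of 3 genes held it, against 4.51% of 27025 genes and 3.97% of 32851 windows overall. The matches are shown, with the string in capitals, so that the values of these genes can be read beside those of genes without it. The windows of Gdf15, Atf4, Ddit3, Psat1 and Phgdh held no match. In Trib3 and Chac1 the string reads on the strand opposite to the gene.
Trib3, chr2:152344028-152344057, minus strand: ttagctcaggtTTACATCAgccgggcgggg
Asns, chr6:7693214-7693243, minus strand: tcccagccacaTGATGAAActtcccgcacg
Chac1, chr2:119351038-119351067, plus strand: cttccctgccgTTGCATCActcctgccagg
The match covers bases 15 to 22 of the transcript in Trib3, lies 23 to 16 bases before the start in Asns and 193 to 186 bases before it in Chac1. It is a match of letters, not a shown binding site.

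At 7 d the levels in RPKM ran from Atf4 (42.3 ± 1.11, SD, n = 3) and Ddit3 (32.8 ± 3.95) to Gdf15 (7.77 ± 2.32), Chac1 (1.97 ± 0.32), Trib3 (1.49 ± 0.34), Phgdh (1.41 ± 0.16), Psat1 (1.38 ± 0.37) and Asns (0.96 ± 0.23). Neighbours did not overlap between hearts as far as Gdf15 and Chac1, and below that each overlapped the next. In control hearts they ran from Atf4 (56.6 ± 4.68) and Ddit3 (27.9 ± 2.42) to Chac1 (2.58 ± 0.58), Gdf15 (1.82 ± 0.08), Phgdh (1.50 ± 0.02), Trib3 (1.35 ± 0.35), Psat1 (1.14 ± 0.24) and Asns (0.95 ± 0.17). Neighbours down to Phgdh did not overlap, and Phgdh, Trib3, Psat1 and Asns each overlapped the next. RPKM is per length, so these levels can be compared between genes. Asns had a mean of 0.98 RPKM over the 15 hearts. It missed the minimum of 1 RPKM set for testing, so 7 of the 8 genes were tested among 10557, and Asns is given from the fit with no such minimum.

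Gdf15 was the one gene of the set that rose against control. It had 1.91, 1.79 and 1.76 RPKM in control hearts, 0.56, 0.78 and 0.62 at 12 h, 0.88, 2.22 and 1.72 at 24 h, 0.94, 1.33 and 1.89 at 72 h, and 6.99, 10.38 and 5.93 at 7 d. All 3 hearts at 7 d lay above every other heart, all 3 at 12 h lay below every other heart, and the 24 h and 72 h hearts overlapped control.

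**Figure D1:**
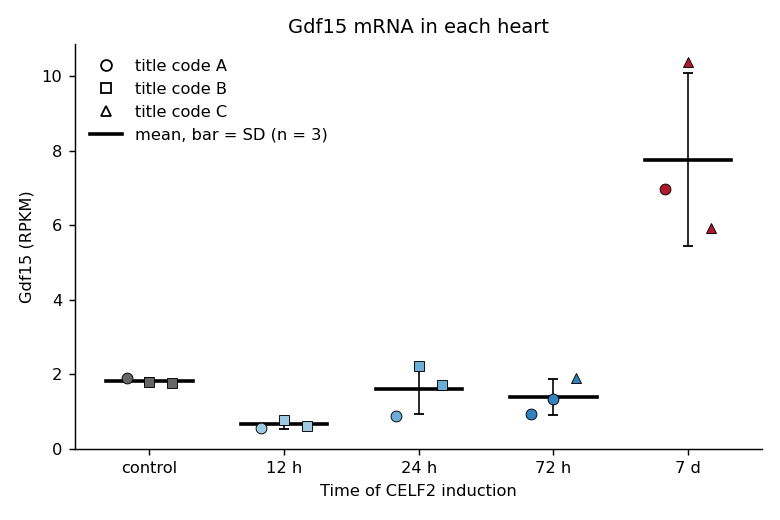
Gdf15 mRNA (vertical axis, RPKM) in the 15 hearts, by group (horizontal axis, control and then time of induction). Each point is a heart, its shape gives the title code, and lines and bars are mean and SD (n = 3). The 7 d hearts lie between 5.93 and 10.38 RPKM, and no other heart exceeds 2.22 RPKM.

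At 7 d Gdf15 averaged 7.77 ± 2.32 RPKM, against 1.82 ± 0.08 RPKM in control hearts (SD, n = 3 each), a ratio of 4.27. An exact permutation test, two-sided, gave p = 0.1, the smallest that 3 hearts against 3 allow. In limma, fitted to log2(RPKM + 0.5) over all genes, the log2 change was 1.80 (SE 0.25, 95% interval 1.26 to 2.33, Benjamini-Hochberg adjusted p = 0.000481). It ranked 13 of 10557 genes by log2 change, where the median gene had 0.03. On this scale the change of a gene at so low a level is understated. Leaving out each heart in turn kept the log2 change between 1.58 and 1.96 and the call. Within title code A, the only code with both groups, the 7 d heart had 6.99 RPKM and the control heart 1.91 RPKM, a ratio of 3.66. With title code and Y-linked mRNA both as covariates the log2 change was 1.49 and the call was lost (limma adjusted p = 0.0989), whereas with either alone it was 1.76 and 1.54 and the call held (adjusted p = 0.00221 and 0.0116).

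The late rise was also seen against the earlier induced hearts, which do not involve the control hearts. Gdf15 was 11.9 times as high at 7 d as at 12 h (log2 change 2.81, SE 0.25, limma adjusted p = 1.37e-05), where the 12 h hearts averaged 0.65 ± 0.11 RPKM. With title code and Y-linked mRNA together that call was just lost (log2 change 2.41, adjusted p = 0.0508). It was 5.60 times as high at 7 d as at 72 h (log2 change 2.13, SE 0.25, limma adjusted p = 0.000528), where the 72 h hearts averaged 1.39 ± 0.48 RPKM. The 7 d and 72 h hearts all held Y-linked mRNA, and within title code C, with 2 hearts at 7 d and 1 at 72 h, the ratio was 4.31.

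At 12 h Gdf15 averaged 0.65 ± 0.11 RPKM, against 1.82 ± 0.08 RPKM in control hearts, a ratio of 0.36 with no overlap (exact permutation p = 0.1). The log2 change of -1.01 (95% interval -1.54 to -0.48) did not pass adjustment over all genes (limma adjusted p = 0.112, unadjusted p = 0.00112). With the title code as a covariate the log2 change was again -1.01 and passed (limma adjusted p = 0.0182). With Y-linked mRNA as a covariate it was -0.89 and did not pass (adjusted p = 0.191). With both it was -0.93 and just passed (adjusted p = 0.0485), and it did not pass in any omission of a single heart. The ratio was 0.29 within code A and 0.39 within code B. At 24 h Gdf15 averaged 1.61 ± 0.68 RPKM, 0.88 times the control mean (log2 change -0.19, 95% interval -0.73 to 0.34), and at 72 h 1.39 ± 0.48 RPKM, 0.76 times the control mean (log2 change -0.33, 95% interval -0.86 to 0.20). At 24 h the heart of code A was the low one, at 0.88 RPKM against 1.91 RPKM in the control heart of that code. It was also the only 24 h heart without Y-linked mRNA, so code and Y-linked mRNA cannot be told apart within that group.

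Atf4, the transcription factor at the centre of the response, fell at 7 d at the level of its mRNA. It had 56.75, 61.26 and 51.90 RPKM in control hearts, 50.08, 63.50 and 70.95 at 12 h, 59.88, 59.85 and 58.86 at 24 h, 48.32, 54.46 and 53.09 at 72 h, and 43.09, 42.85 and 41.05 at 7 d. The 3 hearts at 7 d lay below all others and close together, while the 12 h hearts were the most spread. The mean was 42.3 ± 1.11 RPKM at 7 d, against 56.6 ± 4.68 RPKM in control hearts (log2 change -0.41, SE 0.11, limma adjusted p = 0.033). Against 12 h hearts, at 61.5 ± 10.6 RPKM, the log2 change at 7 d was -0.52 (SE 0.11, limma adjusted p = 0.00755). The second of these calls was lost with the title code (log2 change -0.44, adjusted p = 0.053), with Y-linked mRNA (-0.42, adjusted p = 0.204) and in a fit of the compared groups alone (-0.52, adjusted p = 0.0622), and with both covariates the log2 change was 0.007 (adjusted p = 0.993). Against 72 h it was -0.29 with no overlap and did not pass (limma adjusted p = 0.212, unadjusted p = 0.0221).

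The call for Atf4 at 7 d against control was lost with the title code as a covariate (log2 change -0.33, limma adjusted p = 0.135) and with Y-linked mRNA as a covariate (-0.34, adjusted p = 0.211), and with both the log2 change was 0.01 (adjusted p = 0.983). It was also lost without control replicate 1 or 2 or without any of the 3 hearts at 7 d, where the log2 change lay between -0.43 and -0.36 and the adjusted p between 0.068 and 0.14. Within title code A the 7 d heart had 43.09 RPKM and the control heart 56.75 RPKM. At 12 h, 24 h and 72 h Atf4 was not called, and its 95% intervals against control, as folds, ran from 0.91 to 1.27, from 0.89 to 1.25 and from 0.78 to 1.09.

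Ddit3 encodes CHOP, a transcription factor that ATF4 induces and that takes part in stress-induced cell death. It had 25.80, 27.26 and 30.52 RPKM in control hearts, 18.49, 22.22 and 27.09 at 12 h, 28.81, 28.71 and 33.43 at 24 h, 24.31, 28.11 and 28.50 at 72 h, and 28.26, 35.22 and 34.97 at 7 d. Every time point overlapped control. Between the ends of the time course the hearts did not overlap, with 32.8 ± 3.95 RPKM at 7 d against 22.6 ± 4.31 RPKM at 12 h, and Ddit3 rose (log2 change 0.54, SE 0.14, limma adjusted p = 0.0183, where the median gene had 0.13). That call was lost with median-ratio scaling between hearts (log2 change 0.42, adjusted p = 0.0525), with Y-linked mRNA as a covariate (0.40, adjusted p = 0.3), with both covariates (0.58, adjusted p = 0.325) and in a fit of the compared groups alone (0.54, adjusted p = 0.087). It was lost too without 12 h replicate 2 or without 7 d replicate 2 or 3, where the log2 change was 0.53, 0.48 and 0.49 (adjusted p = 0.0553, 0.0814 and 0.0716).

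Against control, Ddit3 had a log2 change of 0.23 at 7 d (95% interval -0.07 to 0.52, limma adjusted p = 0.35), which as a fold leaves room from 0.95 to 1.44. At 12 h it was -0.31 (limma adjusted p = 0.382, unadjusted p = 0.0415). Trib3 encodes a pseudokinase that binds ATF4 and CHOP and dampens their activity. It had 1.07, 1.24 and 1.75 RPKM in control hearts, 0.77, 1.12 and 1.78 at 12 h, 1.07, 1.10 and 1.66 at 24 h, 0.77, 1.25 and 1.49 at 72 h, and 1.20, 1.40 and 1.86 at 7 d. All groups overlapped, the lowest heart of every group was of title code A, and at 7 d the 95% interval against control, as a fold, was 0.76 to 1.53.

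**Figure D2:**
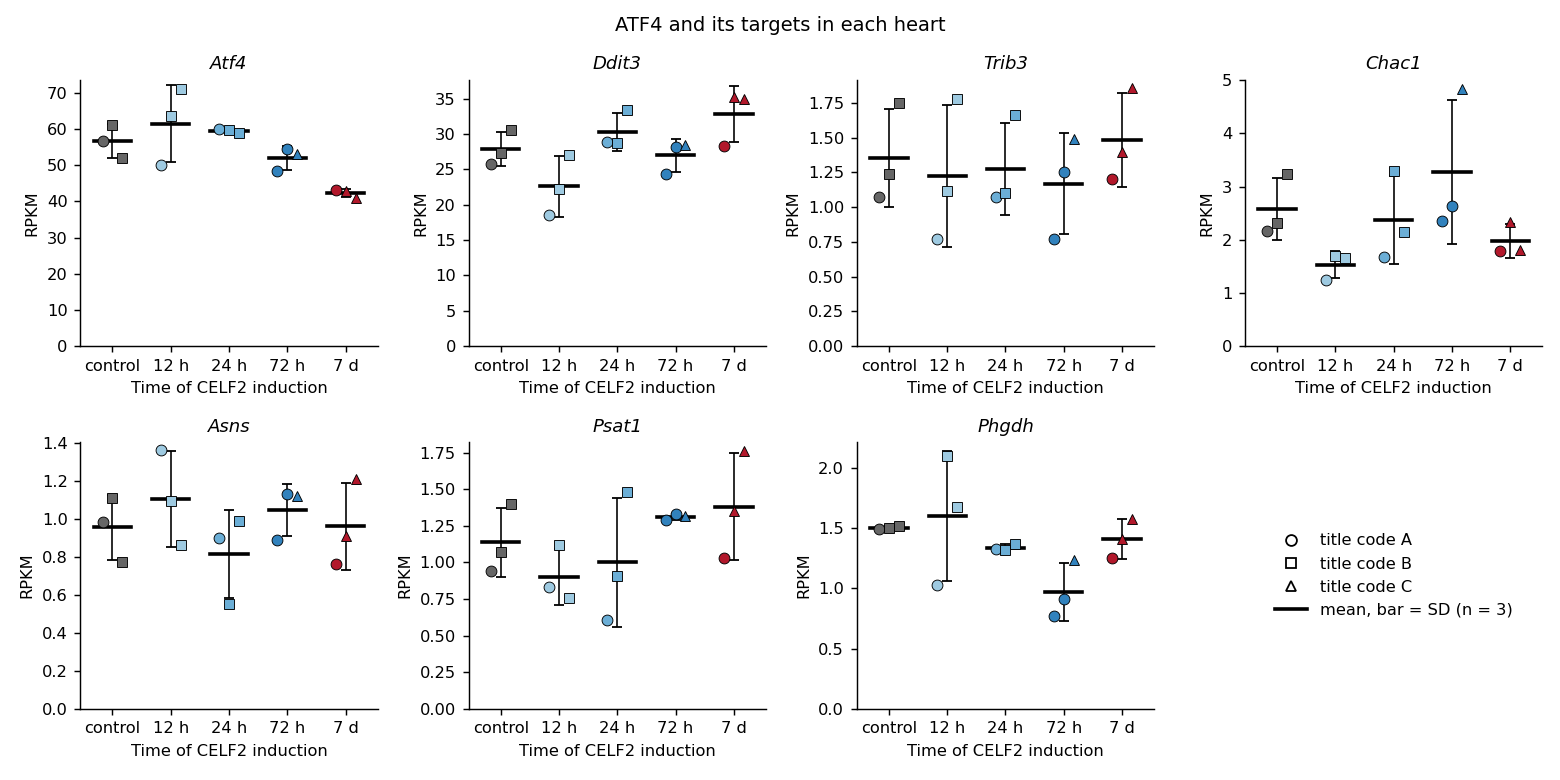
Atf4, Ddit3, Trib3, Chac1, Asns, Psat1 and Phgdh mRNA (vertical axes, RPKM) in the 15 hearts, by group (horizontal axes, control and then time of induction), with points, shapes, lines and bars for hearts, title codes, means and SD (n = 3). Atf4 lies between 41.05 and 43.09 RPKM at 7 d, below all other hearts, and the other genes overlap control at 7 d.

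Chac1 encodes an enzyme that breaks down glutathione. It had 2.17, 2.32 and 3.24 RPKM in control hearts, 1.24, 1.70 and 1.65 at 12 h, 1.68, 3.30 and 2.14 at 24 h, 2.35, 2.63 and 4.83 at 72 h, and 1.78, 2.34 and 1.80 at 7 d. The 12 h hearts lay below control without overlap, as was seen for Gdf15 and for 16.5% of all tested genes in either direction. The highest heart was one at 72 h, of title code C. The log2 change at 12 h was -0.59 (95% interval -1.11 to -0.07, limma adjusted p = 0.346, unadjusted p = 0.0291) and at 7 d -0.31 (95% interval -0.83 to 0.22). The 7 d and 72 h hearts did not overlap, by 2.34 against 2.35 RPKM, as for 20.5% of all tested genes. Between 7 d and 72 h the log2 change was -0.56 and did not pass (limma adjusted p = 0.269), though it did with the title code as a covariate (log2 change -0.72, adjusted p = 0.0342). Without the high 72 h heart it was -0.28 (adjusted p = 0.453).

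The enzymes of amino acid synthesis showed no called difference by limma in any of the 6 comparisons, and only Phgdh had an unadjusted p under 0.05, at 72 h against control and at 7 d against 72 h. Asns, which makes asparagine, had 0.98, 1.11 and 0.77 RPKM in control hearts, 1.36, 1.09 and 0.86 at 12 h, 0.90, 0.55 and 0.99 at 24 h, 0.89, 1.13 and 1.12 at 72 h, and 0.76, 0.91 and 1.21 at 7 d. All groups overlapped. In the fit with no minimum its log2 change at 7 d was 0.00 with a 95% interval of -0.36 to 0.36, which as a fold is 0.78 to 1.29.

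Phgdh carries out the first committed step of serine synthesis. It had 1.49, 1.50 and 1.52 RPKM in control hearts, 1.03, 2.10 and 1.68 at 12 h, 1.33, 1.32 and 1.37 at 24 h, 0.77, 0.91 and 1.24 at 72 h, and 1.25, 1.41 and 1.58 at 7 d. The 24 h and 72 h hearts lay below control without overlap, and groups did not overlap for 17.3% and 18.1% of all tested genes. At 24 h the log2 change was -0.12 (limma adjusted p = 0.858), where the median gene had -0.10. At 72 h, the time matched to control in doxycycline, the log2 change was -0.46 (95% interval -0.83 to -0.08, limma adjusted p = 0.266, unadjusted p = 0.0206), and at 7 d it was -0.07 (95% interval -0.44 to 0.30). Psat1, which follows Phgdh in the pathway, had 0.94, 1.07 and 1.40 RPKM in control hearts, 0.83, 1.12 and 0.76 at 12 h, 0.61, 0.91 and 1.48 at 24 h, 1.29, 1.33 and 1.32 at 72 h, and 1.03, 1.35 and 1.76 at 7 d. All groups overlapped control, and at 7 d the log2 change was 0.19 (95% interval -0.25 to 0.63).

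**Figure D3:**
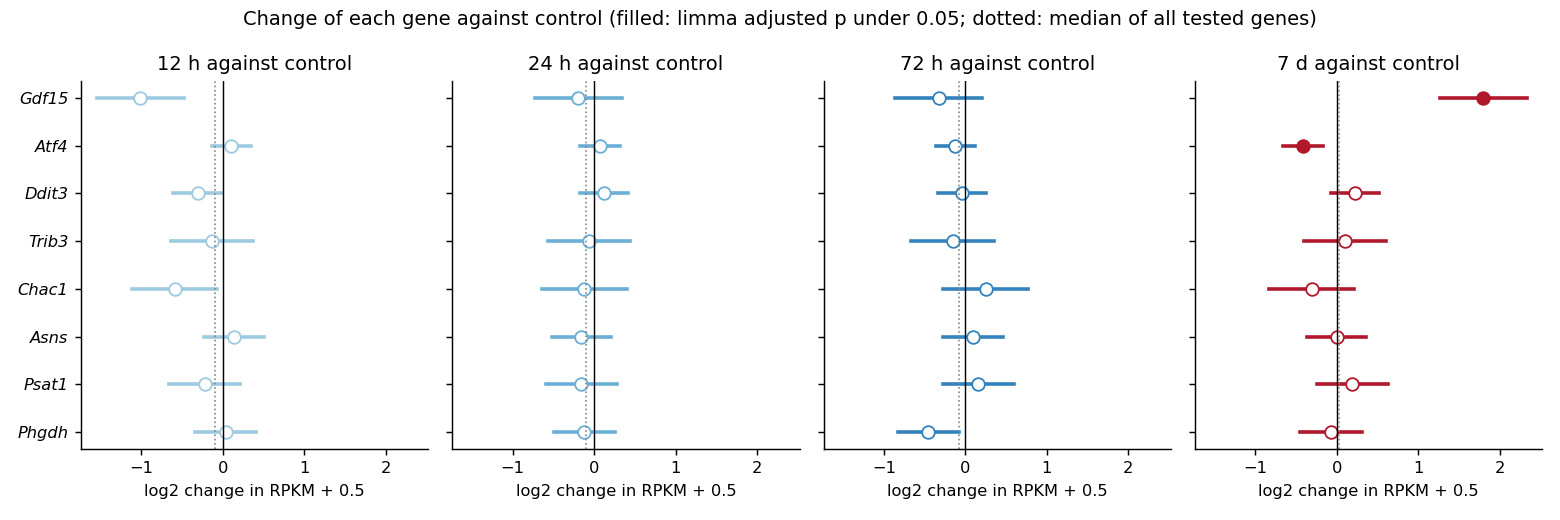
Log2 change in RPKM + 0.5 against control (horizontal axes) of each gene (vertical axis) at 12 h, 24 h, 72 h and 7 d, with 95% intervals from limma. Filled points have an adjusted p under 0.05, dotted lines mark the median of all tested genes, and Asns is from the fit with no minimum level. Gdf15 at 1.80 and Atf4 at -0.41 are filled, both at 7 d.

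Counted over the 7 tested genes, none was called at 12 h (3 at an unadjusted p under 0.05), 24 h (0) or 72 h (1) against control, times at which limma called 0.388%, 0.0947% and 0.597% of all genes. Those shares are of calls after adjustment, and the share of all genes at an unadjusted p under 0.05 is not given here. At 7 d against control 2 were called, 1 in each direction, where 9.99% of genes were. At 7 d 3 of 7 were called against 12 h, 2 higher and 1 lower, where 15.6% of genes were, and 1 of 7, Gdf15, against 72 h, where 2.52% were. Without Gdf15 the median log2 change of the other 6 genes at 7 d against control was 0.02, within a range of -0.41 to 0.23, against 0.03 over all genes. Groups at 7 d and in control did not overlap for 2 of the 8 genes, and for 31.7% of all tested genes. At 12 h, 24 h and 72 h against control this held for 2, 1 and 1 of the 8, and for 16.5%, 17.3% and 18.1% of all tested genes. For 7 d against 12 h and against 72 h it held for 4 and 4 of the 8, and for 30.4% and 20.5%.

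The known markers of other cells were read beside the rise of Gdf15. The summed level of 8 cardiomyocyte markers was 26414 to 28021 RPKM at 7 d, against 30849 to 32890 RPKM in control hearts, with 2 of the 8, Myh6 and Pln, called lower. Of all tested genes 4.16% were called lower at 7 d against control. The 9 macrophage markers summed to 118 to 161 RPKM at 7 d, against 152 to 161 RPKM in control hearts, with none of 8 tested called (1 at an unadjusted p under 0.05). The 7 fibroblast markers summed to 524 to 634 RPKM, against 586 to 638 RPKM in control hearts, with none called (0). Atrial markers, 4 genes, summed to 121, 148 and 347 RPKM at 7 d, against 62.1, 94.6 and 152 RPKM in control hearts, with none called (1). Nppa, also a known marker of strained ventricle, had 75.33, 124.58 and 215.44 RPKM at 7 d, against 22.45, 27.88 and 64.11 RPKM in control hearts. As groups Myl7, Sln and Myl4 overlapped control, and the median log2 change of the 4 genes was -0.06. In the 7 d heart with the highest sum, however, Myl7, Sln and Myl4 had 29.40, 23.39 and 78.64 RPKM. These were above every control heart, which had at most 24.68, 14.83 and 48.61 RPKM. Gdf15 in that heart was 5.93 RPKM, against 6.99 and 10.38 RPKM in the other 7 d hearts, and a link with the atrial sum was not tested. The 5 smooth muscle and pericyte markers summed to 172 to 276 RPKM at 7 d, against 193 to 271 RPKM in control hearts, with none called (1) and a median log2 change of -0.59, beside -0.31 for the cardiomyocyte markers. The 6 endothelial markers summed to 228 to 300.2 RPKM at 7 d, against 246 to 254 RPKM in control hearts, and the 2 measured red cell markers to 532 to 887 RPKM at 7 d, against 420 to 804 RPKM in control hearts, with none called (0). Of 4 adipocyte markers 3 were tested and 2, Cfd and Car3, were lower. Neutrophil and T cell markers summed to under 1 RPKM in every 7 d heart. The part of these shifts in the result was not tested, and in whole ventricle fewer cells of a type and less RNA per cell cannot be told apart.

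The wider pathway was read from 11 lists with 136 genes, of which 110 were tested. At 7 d against control 4 were higher and 7 lower by limma, 11 of 110, where 9.99% of all genes were called. Between 7 d and 72 h 2 were higher and 0 lower, 1.82% where 2.52% of all genes were called, and between 7 d and 12 h 10 were higher and 4 lower (43 at an unadjusted p under 0.05), 12.7% where 15.6% were. These shares were close to or below those of genes at large. Against control none was called at 12 h (24 at an unadjusted p under 0.05) or 24 h (9), and 1 was lower at 72 h (14). The counts at an unadjusted p have no share of all genes beside them. With title code and Y-linked mRNA together, none of the 14 calls at 7 d against 12 h held, and those of Slc1a4, Slc3a2, Sars and Afg3l2 held without any 1 heart. Of the upstream list, the kinases that phosphorylate eIF2 alpha, eIF2 alpha itself and the phosphatase subunits that undo it, 0 of 7 were called at 7 d, and 0 had an unadjusted p under 0.05. Its smallest adjusted p were those of Ppp1r15b, Eif2ak1, Eif2s1 and Eif2ak3, with log2 changes of -0.23 to 0.19 and adjusted p of 0.24 to 0.514.

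**Figure D4:**
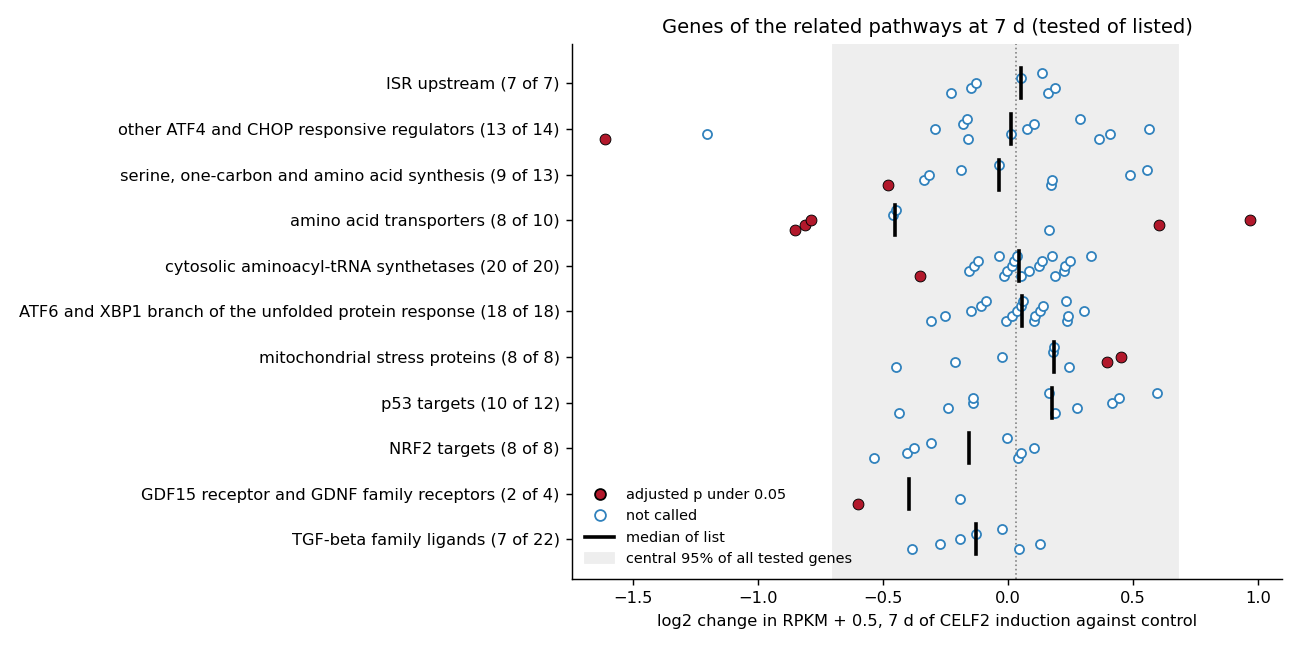
Log2 change in RPKM + 0.5 at 7 d against control (horizontal axis) of the tested genes of each related list (vertical axis, tested of listed). Red points have a limma adjusted p under 0.05, black bars are list medians, and the grey band holds the central 95% of all tested genes. Amino acid transporters hold 5 of the 11 called genes, on both sides of 0.

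Amino acid transporters held the most called genes at 7 d against control, 2 higher and 3 lower of 8 tested, where 9.99% of all genes were called. At 7 d against 12 h 1 was called higher and 1 lower, where 15.6% of all genes were. Slc1a4, a carrier of neutral amino acids including serine, had 6.66, 6.29 and 7.30 RPKM at 7 d, against 2.94, 3.55 and 3.14 RPKM in control hearts (log2 change 0.97, SE 0.14, limma adjusted p = 0.000626). It was also higher at 7 d than at 72 h, where the hearts had 2.95, 2.95 and 4.42 RPKM (log2 change 0.90, limma adjusted p = 0.00441). The call against 72 h was lost in a fit of the compared groups alone (adjusted p = 0.081). Of the 110 tested list genes, Slc1a4 and Slc38a2 were the 2 called against 72 h.

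Slc38a2, a sodium-coupled neutral amino acid carrier, had 42.08, 37.17 and 36.37 RPKM at 7 d, against 27.51, 26.12 and 22.09 RPKM in control hearts (log2 change 0.60, limma adjusted p = 0.0312). It was named after its values were seen. Its call against control held in 16 of 27 alternatives and was lost without any 1 of the 7 d or control hearts. Its call against 72 h (log2 change 0.75, adjusted p = 0.0278) was lost under each scaling, without any 1 of the 7 d hearts and without 72 h replicate 1 or 2 (adjusted p = 0.119 and 0.106). The paired subunits Slc3a2 and Slc7a5, which together form a carrier of large neutral amino acids, were both lower. Slc3a2 averaged 15.9 ± 0.89 RPKM at 7 d and 27.9 ± 1.51 RPKM in control hearts (log2 change -0.79, limma adjusted p = 0.00508), and Slc7a5 averaged 0.80 ± 0.14 RPKM at 7 d and 1.79 ± 0.33 RPKM in control hearts (log2 change -0.81, limma adjusted p = 0.0154). Slc1a5, a glutamine carrier, was lower as well, at 5.51 ± 1.35 RPKM at 7 d and 10.3 ± 1.76 RPKM in control hearts (log2 change -0.85, limma adjusted p = 0.0216).

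**Figure D5:**
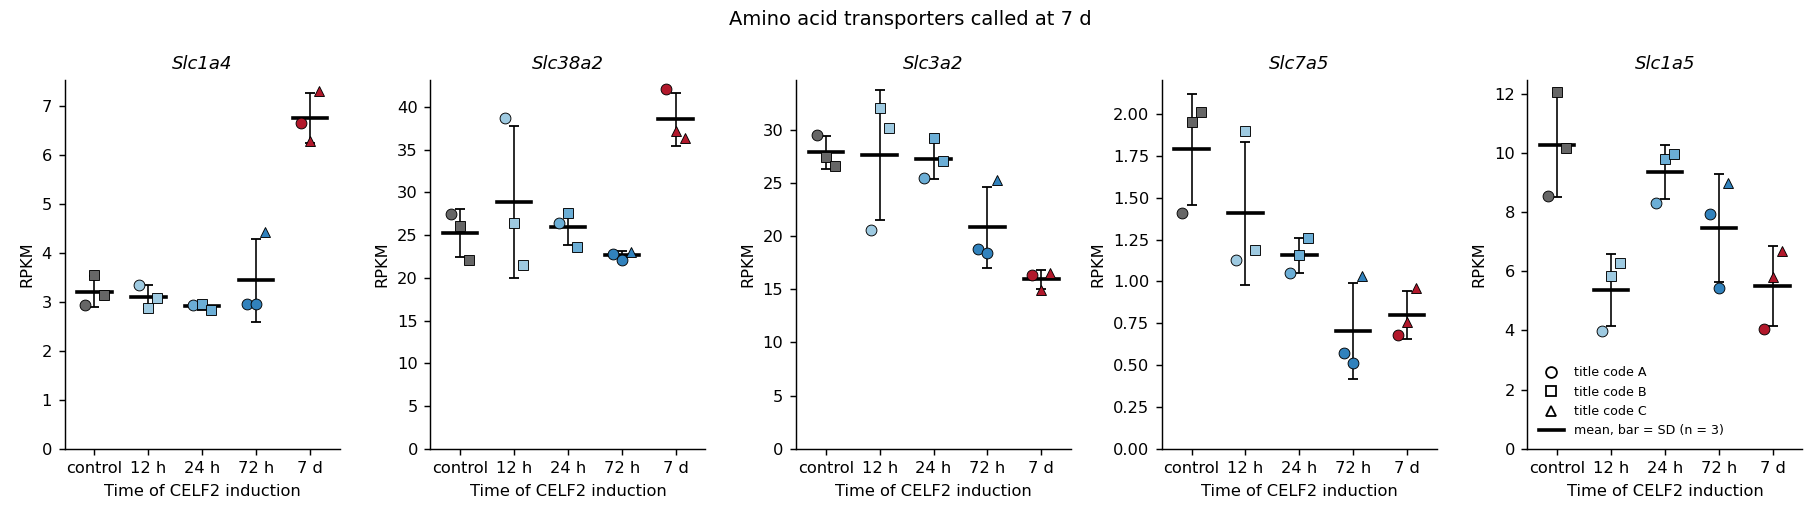
RPKM of Slc1a4, Slc38a2, Slc3a2, Slc7a5 and Slc1a5 (vertical axes) in the 15 hearts, by group (horizontal axes, control and then time of induction), with points, shapes, lines and bars for hearts, title codes, means and SD (n = 3). Slc1a4 lies between 6.29 and 7.30 RPKM at 7 d and does not exceed 4.42 RPKM elsewhere, and Slc7a5 is already low at 72 h.

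Of the 110 tested list genes Slc7a5 was the 1 called at 72 h, at 0.70 ± 0.28 RPKM against 1.79 ± 0.33 RPKM in control hearts (log2 change -0.94, limma adjusted p = 0.0438). That call was lost without any 1 of 11 hearts and with no minimum level (adjusted p = 0.0568). It was lost too with Y-linked mRNA (0.217), with both covariates (0.268) and in a fit of the compared groups alone (0.16). Slc1a4 and Slc3a2 kept their calls at 7 d against control in every alternative except title code and Y-linked mRNA together. The calls for Slc7a5 and Slc1a5 were lost without 7 d replicate 1 or 2 and without control replicate 2 or 3, and that for Slc1a5 also with Y-linked mRNA as a covariate (adjusted p = 0.0841). Slc7a11, the cystine carrier known as an ATF4 target, did not exceed 0.04 RPKM in any heart.

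Of the other regulators that respond to ATF4 and CHOP, 0 were higher and 1 was lower of 13 tested at 7 d, with a median log2 change of 0.01. The lower one, Ddit4, an inhibitor of mTORC1, had 6.14, 9.02 and 9.39 RPKM at 7 d, against 19.19, 37.95 and 23.22 RPKM in control hearts (log2 change -1.61, SE 0.46, limma adjusted p = 0.038). Its call was lost without any 1 of these 6 hearts and with Y-linked mRNA as a covariate (adjusted p = 0.106). Gadd45a (log2 change 0.41), Cebpb (-1.20) and Crebrf (0.56) did not pass (limma adjusted p = 0.109 to 0.353). At 7 d against 12 h 1 of the 13 was called higher and 0 lower, where 15.6% of all genes were called. Fgf21, a secreted stress hormone that like Gdf15 is induced through ATF4 in other tissues, did not exceed 0.11 RPKM in any heart.

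Of 9 tested genes of serine, one-carbon and amino acid synthesis, 0 were higher and Mthfd1, a cytosolic enzyme of the folate cycle, was lower, at 8.38 ± 0.74 RPKM at 7 d and 11.9 ± 1.29 RPKM in control hearts (log2 change -0.48, limma adjusted p = 0.0187), a call lost without 7 d replicate 1 or 2 or control replicate 2 or 3 and with Y-linked mRNA as a covariate (adjusted p = 0.0949). The mitochondrial folate enzymes Mthfd2 and Aldh1l2 had log2 changes of 0.49 and 0.55 (limma adjusted p = 0.0959 and 0.129), and Cth one of -0.32 (adjusted p = 0.253). Against 12 h 2 of the 9 were higher at 7 d, Aldh1l2 (log2 change 0.71, limma adjusted p = 0.0407) and Shmt1 (0.71, adjusted p = 0.0107), and Got1 was lower (-0.50, adjusted p = 0.0412), each call lost without 12 h replicate 2, among other hearts. In that comparison 11.8% of all tested genes were called higher and 3.88% lower. Of 20 cytosolic aminoacyl-tRNA synthetases, many of which ATF4 activates, 0 were higher and 1 was lower at 7 d, Farsb (log2 change -0.35, limma adjusted p = 0.0444), a call lost under every scaling tried. Sars, Dars and Rars had log2 changes of 0.23 to 0.33 (adjusted p = 0.118 to 0.266), and the list's median was 0.04. Against 12 h 3 of the 20 were higher at 7 d, Sars (log2 change 0.46, limma adjusted p = 0.00319), Dars (0.64, adjusted p = 0.0192) and Qars (0.37, adjusted p = 0.0337), where the median gene had 0.13. Of all tested genes 11.8% were called higher in that comparison. The calls for Dars and Qars were lost without 12 h replicate 2 or 3 or 7 d replicate 2 or 3, and those of all 3 genes when Y-linked mRNA was a covariate. Shmt1, Got1 and Qars were named after their values were seen.

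None of 18 genes of the ATF6 and XBP1 branch, the chaperone arm of the unfolded protein response, was called at 7 d, with 2 at an unadjusted p under 0.05 and a median log2 change of 0.05. Pdia4, Xbp1, Dnajb9 and Sdf2l1 had log2 changes of 0.24, 0.30, 0.24 and -0.31 (limma adjusted p = 0.14 to 0.366). At 7 d against 12 h 0 of the 18 were called higher and 1 lower, where 15.6% of all genes were called. Of 8 mitochondrial stress proteins 2 were higher, where 5.83% of all genes were called higher. Hspa9, the mitochondrial Hsp70, averaged 249 ± 15.5 RPKM at 7 d and 189 ± 13.8 RPKM in control hearts (log2 change 0.40, limma adjusted p = 0.0087), and Afg3l2, a subunit of an inner membrane protease, averaged 67.6 ± 0.55 RPKM at 7 d and 49.5 ± 3.64 RPKM in control hearts (log2 change 0.45, limma adjusted p = 0.00304). The chaperonin subunits Hspd1 and Hspe1 had log2 changes of -0.21 and -0.45 and did not pass (adjusted p = 0.25 and 0.0676). Both calls were lost with Y-linked mRNA as a covariate, and Hspa9 was not called without control replicate 2. At 7 d against 12 h 2 of the 8 mitochondrial stress proteins were called higher and 0 lower, where 11.8% and 3.88% of all genes were.

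For p53 targets, another route to Gdf15, 0 of 10 were called at 7 d and 2 had an unadjusted p under 0.05, Fas (log2 change -0.44, limma adjusted p = 0.0627) and Zmat3 (0.44, adjusted p = 0.078). Bax and Trp53inp1 had log2 changes of -0.24 and 0.41 (adjusted p = 0.461 and 0.467). These values are against control. At 7 d against 12 h 1 of the 10 was called higher and 0 lower, where 15.6% of all genes were called. For targets of NRF2, the regulator of the oxidative stress response, 0 of 8 were called and 4 had an unadjusted p under 0.05, Osgin1, Gclm, Nqo1 and Hmox1, with log2 changes of -0.54 to -0.31 and adjusted p of 0.0937 to 0.196.

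Among other ligands of the TGF-beta family 7 of 22 reached the minimum level and 0 were called at 7 d, with 1 at an unadjusted p under 0.05, Bmp4 (log2 change -0.39, limma adjusted p = 0.107). Bmp6, Inhba and Tgfb2 had log2 changes of -0.27, -0.19 and 0.13 (adjusted p = 0.438 to 0.665). GFRAL, the GDF15 receptor of the hindbrain, did not exceed 0.06 RPKM in any heart. Its partner Ret had 1.21, 1.34 and 1.41 RPKM at 7 d, against 1.52, 1.61 and 1.60 RPKM in control hearts (log2 change -0.19, limma adjusted p = 0.376). Gfra1, a receptor of the related GDNF ligands, was lower at 7 d (log2 change -0.60, limma adjusted p = 0.0406), and that call was lost without any 1 of the 7 d or control hearts.

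The genes whose log2 levels over the 15 hearts were most like those of Gdf15 were Capns1, Tmem53, Col4a5, Mical2 and Narf, with Pearson r of 0.95, 0.95, 0.93, 0.92 and 0.92. Capns1, the small calpain subunit, averaged 205 ± 11.1 RPKM at 7 d and 158 ± 10.7 RPKM in control hearts. Narf averaged 42.9 ± 3.78 RPKM at 7 d and 25.0 ± 1.60 RPKM in control hearts. Over the 12 hearts without 7 d, r was 0.81, 0.82, 0.85, 0.52 and 0.73 for the same 5 genes, a check added after the values were seen. The genes most like Asns, Snrpe, Ccnc, 2810030E01Rik, Siah1b and Copz1, had lower r, from 0.74 to 0.78. The hearts share title codes and control animals across these genes, and r is given as a description.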

How the data were processed

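RNA-seq libraries came from ventricles of 15 mice. The authors mapped reads to mm9 with Bowtie and TopHat (versions not given in the sources used here), kept unique reads and deposited RPKM values per gene and heart, scaled to nonribosomal, nonmitochondrial reads. The table holds 16199 genes by Entrez identifier with 2 decimals, and 10.8% of its values are 0. In 21.5% of genes a value lies between 0 and 0.05, so steps of whole reads could not be recovered and depth is unknown. No other columns of per-heart values were left unused.

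Groups came from the sample labels, and libraries are separate animals with no replicate numbers in the labels. Labels of induced hearts also mention a Celf1 cassette, which the study's methods do not give for this line and which was not used. The study's mouse list gives another doxycycline dose than the labels and methods.

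Genes whose mean reached 1 RPKM (10557) entered 1 limma fit (version 3.58.1, R 4.3.3) of all 5 groups with a mean-variance trend, on log2(RPKM + 0.5), with Benjamini-Hochberg adjustment over all of them and calls at adjusted p under 0.05. Fold changes are on that scale and understate those of low genes. The fit was tested on simulated data. Gdf15 ratios of mean RPKM had exact two-sided permutation tests (Python 3.11.15). The 6 comparisons were each time point with control, and 7 d with 12 h and 72 h.

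The genes, the lists and the tests were chosen with earlier results of these data known. Of 200 list symbols 198 matched the table. Named genes are all 8 members, the 4 genes per list with the smallest adjusted p at 7 d, and the 5 genes most correlated with Gdf15 and with Asns. Myh6, Pln, Cfd, Car3, Slc38a2, Slc7a11, Fgf21, Gfral and the markers were named in addition. Positions are from the mm9 annotation, and promoter windows are RefSeq, GRCm38.p6.

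Alternatives were other pseudocounts, filters and scalings, title code and Y-linked mRNA as covariates, compared groups alone, library quality weights and leaving out each heart. For list genes called at 72 h, or at 7 d against 12 h or 72 h, these were added after seeing the data.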

Additional observations from a re-analysis of the deposited data

Results flagged for a closer look

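For 3 genes the change against control differed between time points in the main fit, by a test of the difference itself, in which the shared control hearts cancel. These tests are the comparisons of 7 d with 12 h and with 72 h already given. The log2 change of Gdf15 was larger at 7 d than at 12 h by 2.81 and larger at 7 d than at 72 h by 2.13 (limma adjusted p = 1.37e-05 and 0.000528). All 3 hearts at 7 d were above all hearts at 12 h and at 72 h. The log2 change of Atf4 at 7 d minus that at 12 h was -0.52 (limma adjusted p = 0.00755), and that of Ddit3 was 0.54 (limma adjusted p = 0.0183), each with 3 of 3 hearts on 1 side. The calls for Atf4 and Ddit3 were lost with Y-linked mRNA as a covariate and in a fit of the compared groups alone. With title code and Y-linked mRNA together none of the 3 genes was called at 7 d against 12 h. Y-linked mRNA was present in 3 of 3 hearts at 7 d and 0 of 3 at 12 h, and its part in the differences from 12 h was not tested beyond the covariate given below. Between 7 d and 72 h all 6 hearts held it. A difference in time of day at 12 h was not tested either.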

How the results depend on the processing

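No paired analysis was possible because the hearts came from separate animals and the labels pair none of them. Of the 7 tested genes, the number called at 12 h (0) was 1 with the title code as a covariate, 1 with title code and Y-linked mRNA and 3 with library quality weights, and at 72 h (0) it was 4 with those weights. At 24 h it stayed 0 under the 12 settings and 15 single-heart omissions. At 7 d against control (2) it was 1 with a minimum of 5 RPKM, with the title code or with Y-linked mRNA, 0 with both covariates, 3 with weights, and 1 to 2 without 1 heart. At 7 d against 12 h (3) it was 1 with Y-linked mRNA or with the compared groups alone, 0 with both covariates, 5 with weights, and 2 to 3 without 1 heart. At 7 d against 72 h (1) it was 0 with a minimum of 5 RPKM, which removes Gdf15, 2 with the title code, 2 with both covariates, 5 with weights, and 1 without 1 heart. Without 1 heart the counts at 12 h and 72 h stayed 0. Atf4 turned sign with both covariates, to 0.009 against control (-0.41) and 0.007 against 12 h (-0.52), as did Gadd45a against 12 h, to -0.069. The Gdf15 ratio to control at 12 h (0.36) was 0.39 with median-ratio scaling, 0.29 within title code A and 0.39 within code B, at 24 h (0.88) 0.46 within code A and 1.11 within code B, and at 72 h (0.76) 0.59 within code A. Without 1 heart it ranged from 0.32 to 0.39 at 12 h, 0.71 to 1.08 at 24 h, 0.62 to 0.89 at 72 h and 3.55 to 4.77 at 7 d. The causes of these shifts were not tested. Scaling moved the median log2 change of all genes from -0.10 to 0.00 at 12 h, with median ratios, and from 0.13 to 0.02 between 7 d and 12 h. Counts of all genes called moved far more: at 12 h (41) from 11 to 2008, at 24 h (10) from 1 to 326, at 72 h (63) from 1 to 5213, at 7 d (1055) from 188 to 4392, at 7 d against 12 h (1651) from 78 to 6625 and against 72 h (266) from 57 to 7400, the highest with weights except at 24 h, where the title code gave it. With title code and Y-linked mRNA together, none of the calls of list genes at 7 d against control or against 12 h remained. Against 72 h those of Slc1a4 and Slc38a2 held (limma adjusted p = 0.00379 and 0.00749). With no counts, the reads behind levels near 1 RPKM are unknown.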
